A study of Drosophila melanogaster with 13 samples.

Results

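Heat shock and stress chaperones are proteins that hold, refold or pass on other proteins, and many of their genes are switched on within minutes by heat or other stress. The set described here holds 35 genes chosen by symbol: the Hsp70 copies and Hsp68, the 67B small heat shock genes and l(2)efl, the Hsc70 cognates, Hsp83 with its partners Hop and CHIP, the Hsp60 genes, J-domain proteins, stv, the transcription factor Hsf and the non-coding RNA Hsromega. All 35 had a row among the 16727 genes counted, 34 under the listed symbol and Hsp60A under its synonym Hsp60. The working label called the set cytosolic. The products of Hsp60A, Hsp60C, Hsp60D, Hsc70-5, Hsc20 and Hsp22 belong to mitochondria by their annotation or family, so the set is called heat shock and stress chaperones here.

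RNA came from secondary cells of the male accessory gland of Drosophila melanogaster, a minor epithelial cell type that adds to the seminal fluid, in males aged 5 to 11 days. The ribosome IP group (3 libraries; UAS GFP-RPL10Ab, D1:GAL4) was RNA bound to a GFP-tagged ribosomal protein and recovered from gland extract with anti-GFP, an approach called TRAP. The control IP (1 library; UAS GFP, D1:GAL4) was the same precipitation from glands with plain GFP. Sorted cells came from D1 (3 libraries; D1:GAL4, UAS-GFP; iab-6cocuD1), a Bithorax complex mutation named for iab-6. Further sorted cells came from miP (3 libraries; D1:GAL4, UAS-GFP; delta MSAmiP), which lacks a micropeptide of the iab-8 transcript, and from wild type (3 libraries; D1:GAL4, UAS-GFP). Glands for sorting were treated with the protease mix TrypLE, broken up and passed through a fluorescence sorter, and the labels give no such step for the IPs. All 5 groups carry the D1:GAL4 driver, which sets the cells that are sorted or tagged, and a UAS transgene.

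The question put to these genes was how the protease-treated, sorted cells compare with the ribosome IPs. In animals the heat shock response runs through Hsf, which binds the promoters of Hsp70, Hsp68, Hsp83, the small heat shock genes, DnaJ-1, stv and Hsromega under stress. Hsp70 proteins take up unfolded clients, J-domain proteins deliver them and stimulate Hsp70, and nucleotide exchange factors such as stv and Hsc70Cb reset it. Hop hands clients on to Hsp83, the Hsp90 of Drosophila. The Hsc70 cognates do the same work in unstressed cells, and the Hsp60 proteins form the folding chamber of mitochondria.

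Library totals, in units of 1000000 counts, were 11.2 to 21.4 in the ribosome IPs, 3.701 in the control IP, 19.4 to 21.3 in D1, 18.2 to 20.8 in miP and 21.2 to 26.1 in wild type. Levels are CPM, counts scaled to a library total of 1000000. The 8 secondary cell markers checked summed to 104634 to 208299 CPM in the ribosome IPs, 13742 in the control IP and 727403 to 740711 in wild type, so the label of the sorted cells stood and the IPs held other RNA as well. Testis and sperm markers, 11 in all, summed to 7808 to 8475 CPM in the ribosome IPs, 12416 in the control IP and 8.97 to 10.6 in wild type. Markers of main cells, the major cell type of the gland, summed to 7295 to 8722 CPM in the ribosome IPs, 16085 in the control IP and 79.4 to 543 in wild type. Library D1 1 stood apart from D1 2 and D1 3, with Hsc70-4, a cognate used in most cells, at 570 CPM against 1967 and 2216 CPM, so results on D1 are also given without it. In bulk samples such as these, fewer cells of a type and less RNA per cell cannot be told apart.

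Most of the heat-inducible genes lie in 3 clusters of the dm6 genome. Chromosome arm 3L holds 7 small heat shock and 67B genes within 14184 nt (9371511 to 9385694), in the order Hsp67Bc, Hsp67Bb, Hsp22, Hsp26, Hsp67Ba, Hsp23 and Hsp27. The Hsp70 copies lie on 3R, Hsp70Aa and Hsp70Ab within 11954163 to 11960909, and Hsp70Ba, Hsp70Bbb, Hsp70Bb and Hsp70Bc within 12465453 to 12511461. Hsp68 stands alone at 3R 24055080 to 24057310. In the Ensembl annotation 12 of the 35 genes have no intron in any transcript, among them all Hsp70 copies, Hsp68, Hsp23, Hsp26, Hsp27, Hsp67Ba and Hsp67Bc.

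Counts at 0 in every library occurred for 3 of the 35 genes, and each has a form of annotation in which reads can be lost. Hsp22 lies inside the exons of Hsp67Bb (CG4456 in current annotation), DnaJ-60 has the same span as CG42568, and Hsp70Ab is a near-identical copy of the other Hsp70 genes. HTSeq by default leaves out reads that match more than 1 gene or place, and its settings are not stated in the labels or the file. These zeros were therefore not read as a lack of RNA. Because reads can also be split among the Hsp70 copies, the 6 Hsp70A and Hsp70B rows were summed as well, and values of single copies are uncertain. GAL4 and UAS constructs often carry Hsp70 sequence, the labels do not say whether these do, and its part in the counts was not tested. In all, 14 of the 35 genes overlap another annotated gene, and the libraries keep no strand.

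Summed over the set, the counts came to 5484 to 6981 CPM in the ribosome IPs, which is 0.548 to 0.698% of all counts, and to 7964 CPM in the control IP. They came to 17993 to 27579 CPM in D1, 27872 to 39502 in miP and 18700 to 22854 in wild type. The sorted cells thus held a larger share of chaperone counts than any IP library. On a scale per length (CPM per kb of exon), Hsp26 had the highest level in wild type (2558 ± 231, SD, n = 3), followed by Hsp83 (2158 ± 236), Hsp23 (1516 ± 197), summed Hsp70 (1101 ± 88.3), Hsp68 (790 ± 138), Hsp27 (629 ± 86.1) and stv (566 ± 82.8). The neighbours Hsp26 and Hsp83, Hsp68 and Hsp27, and Hsp27 and stv differed by less than the sum of their SDs. In the ribosome IPs the per-length order was different: Hsp23 led (1091 ± 541 CPM per kb), then came Hsp60C (472 ± 52.0), then Hsp83 (215.6 ± 28.4), and Hsc70-4, Hsc70-2 and Hsp26 followed at 187 ± 42.4, 186 ± 31.6 and 180.2 ± 103. Neighbours from Hsp83 to Hsp26 differed by less than the sum of their SDs, while Hsp60C stood apart from both its neighbours by more than that.

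**Figure D1:**
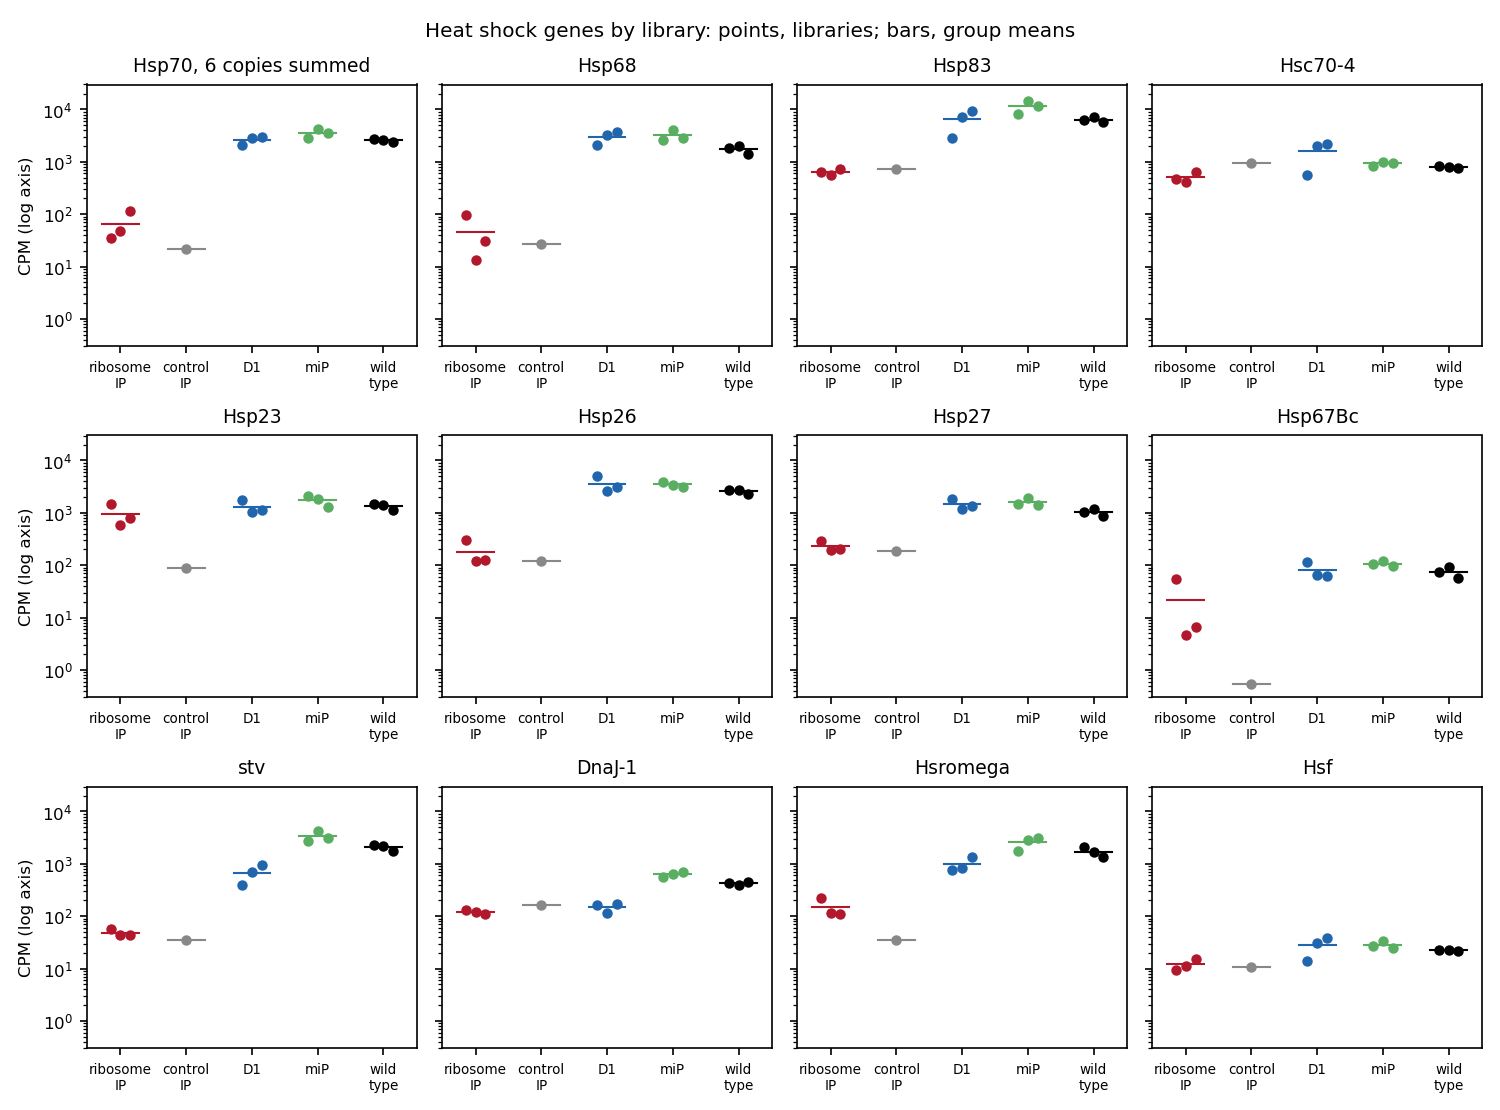
CPM (log axis) of 11 heat shock and chaperone genes and of the summed Hsp70 copies in each library (points) with the group mean (bars), for the ribosome IP (n = 3), control IP (n = 1), D1, miP and wild type (n = 3 each). Summed Hsp70 stands at 34.9 to 117 CPM in the ribosome IPs and at 2366 to 2768 CPM in wild type, while Hsc70-4 and Hsp23 differ far less between the groups.

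Between the ribosome IPs and wild-type sorted cells, the stress-inducible Hsp70 genes were among the most strongly lowered of the set, 54.0-fold to 421-fold for single copies, and Hsp26, Hsp83, stv and Hsromega were also lower. The cognate Hsc70-4 was lower by less, and Hsp60C, Hsp60D, Hsc70-1 and Hsc70-2 were higher and almost without counts in the wild-type cells. Of the 35 genes, 31 passed the filter on low counts. By edgeR's quasi-likelihood test at an adjusted p of 0.05 (Benjamini-Hochberg over 11621 genes; used for every adjusted p here), 8 were higher in the ribosome IPs, where 49.1% of all genes were higher. Another 17 were lower, where 31.5% of all genes were lower, and 6 did not pass. In either direction that is 25 of 31 genes, against 80.6% of all genes. The median log2 fold change was -2.01 over the 31 genes and 0.76 over all genes tested. The 2 groups did not overlap for 26 of the 31 genes, against 84.5% of all genes. Fold changes are on the scale of edgeR's TMM factors, which were 1.62 to 1.85 in the ribosome IPs and 0.544 to 0.618 in wild type. With library totals alone the median of all genes moved to 2.33, 13 of the genes were higher and 14 lower, and the log2 values given below all moved up. How the RNA was taken (protease and sorting, or precipitation), the kind of RNA (total or ribosome-bound) and the mix of cells differ together between these 2 groups and cannot be told apart.

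**Figure D2:**
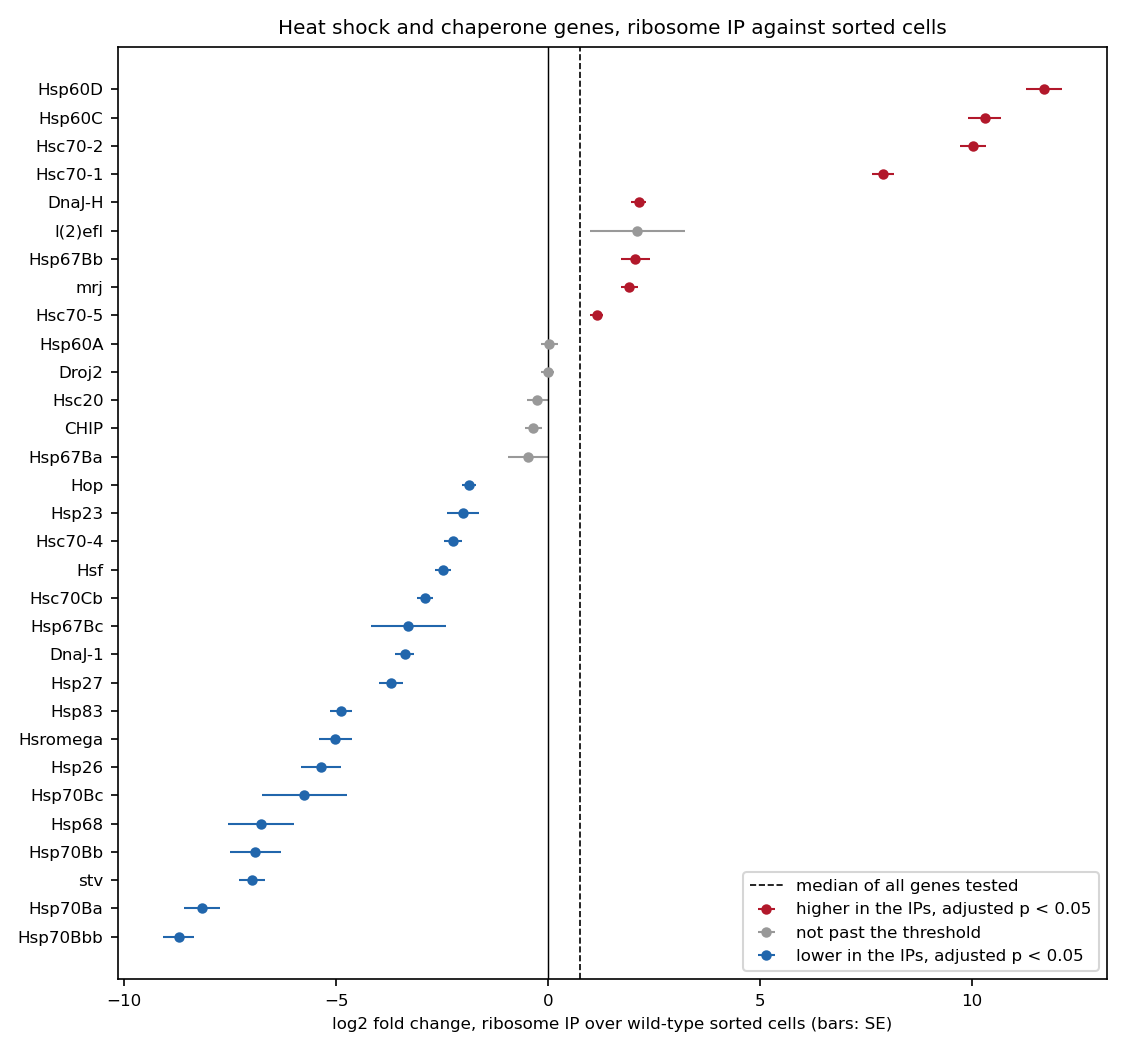
Log2 fold change (x axis) of the 31 tested genes, ribosome IP over wild-type sorted cells, with SE bars; red, higher and blue, lower at an adjusted p under 0.05; grey, not past it; the dashed line marks the median of all genes tested, 0.76. The Hsp70 copies, Hsp68 and stv lie below -5, and Hsp60C, Hsp60D, Hsc70-1 and Hsc70-2 above 7.

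The 6 Hsp70 copies, the main heat-inducible chaperones of the cytosol, summed to 34.9, 47.5 and 117 CPM in the ribosome IPs, against 2768, 2660.1 and 2366 CPM in wild type. Every ribosome IP thus lay far below every wild-type library. The log2 fold change of the sum was -6.89 ± 0.49 (SE), 119-fold lower, with an adjusted p of 2.18e-06; with library totals it was -5.29. Hsp70Bb carried 63.1, 96.6 and 98.5% of these counts in the ribosome IPs, and 91.9 to 93.4% in wild type. The first ribosome IP had 32.1% of them in Hsp70Bc. Among single copies, Hsp70Bb fell by 6.91 ± 0.60 on the log2 scale (120.2-fold lower, adjusted p = 8.67e-06). Hsp70Ba fell by 8.16 ± 0.42 (287-fold lower, adjusted p = 2.98e-07). Hsp70Bbb fell by 8.72 ± 0.37 (421-fold lower, adjusted p = 1.02e-07). Among the tested copies, the one with the fewest wild-type counts thus had the largest fold change. Hsp70Bc fell by 5.76 ± 1.00 (54.0-fold lower, adjusted p = 6.87e-04), with the wide error of its 11.2 CPM in the first ribosome IP against 0.935 and 0.631 in the others. Hsp70Aa had 0 counts in all ribosome IPs together and 29 in wild type, which is at least 20.4-fold lower with 3 counts over the group as the floor, and was too low to be tested.

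Hsp68, an Hsp70 family member that is also heat-inducible, had 94.5, 13.6 and 30.4 CPM in the ribosome IPs, against 1799, 2049 and 1438 CPM in wild type. It fell by 6.78 ± 0.78 on the log2 scale (109.6-fold lower, adjusted p = 5.01e-05). The ribosome IPs spread widely here but none came near a sorted library. Its partner stv, the BAG-family exchange factor, had 57.3, 43.0 and 43.4 CPM in the ribosome IPs, against 2290.5, 2213 and 1729 CPM in wild type (log2 fold change -6.99 ± 0.30, 127-fold lower, adjusted p = 1.13e-07). Hsc70Cb, the Hsp110 exchange factor, was at 65.4 to 90.2 CPM in the ribosome IPs and at 157 to 208 CPM in wild type (-2.91 ± 0.19, adjusted p = 1.44e-06). Both exchange factors were therefore lower, stv by far more.

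The cognate Hsc70-4, which serves unstressed cells, had 465, 418 and 637 CPM in the ribosome IPs, against 851, 799.7 and 763 CPM in wild type. Its log2 fold change was -2.24 ± 0.21 (4.72-fold lower, adjusted p = 1.38e-05), and -0.66 (adjusted p = 0.0228) with library totals. Set against Hsc70-4 within each library, which needs no scaling between libraries, summed Hsp70 counts came to 0.075, 0.114 and 0.183 in the ribosome IPs, 0.0227 in the control IP and 3.26, 3.33 and 3.10 in wild type. In the sorted wild-type cells the inducible genes thus outnumbered the main cognate, and in each IP they were a minor fraction of it. The same ratio was 3.66, 1.46 and 1.35 in D1 and 3.30, 4.27 and 3.79 in miP.

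**Figure D3:**
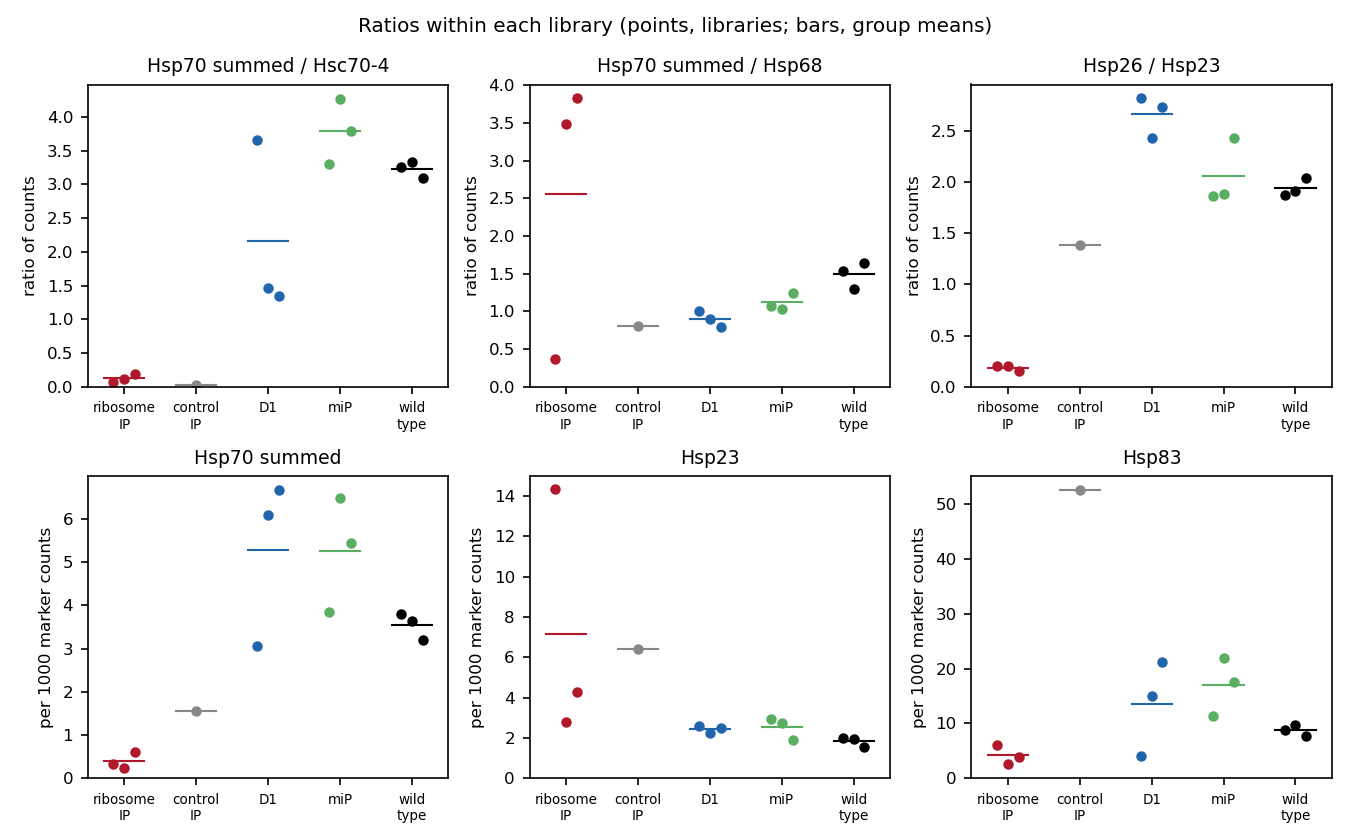
Ratios taken within each library (points; bars, group means; linear axes from 0): summed Hsp70 over Hsc70-4, summed Hsp70 over Hsp68 and Hsp26 over Hsp23 in the upper row, and counts of summed Hsp70, Hsp23 and Hsp83 per 1000 counts of the 8 secondary cell markers in the lower row. Summed Hsp70 over Hsc70-4 is 0.075 to 0.183 in the ribosome IPs and 3.10 to 3.33 in wild type, and Hsp26 over Hsp23 is 0.154 to 0.204 in the ribosome IPs and 1.87 to 2.03 in wild type.

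Among the small heat shock genes, whose products hold unfolded proteins without using ATP, Hsp26, Hsp27, Hsp67Bc and Hsp23 were lower in the ribosome IPs, by very different amounts. Hsp26 had 302, 120.0 and 124 CPM in the ribosome IPs, against 2710.1, 2727 and 2315 CPM in wild type (log2 fold change -5.36 ± 0.47, 41.0-fold lower, adjusted p = 8.79e-06). Hsp27 had 293, 198 and 199.8 CPM in the ribosome IPs, against 1032, 1163 and 883 CPM in wild type (-3.70 ± 0.28, 13.02-fold lower, adjusted p = 3.14e-06). Hsp23, in the same cluster, was the mildest case. It had 1503, 587 and 805 CPM in the ribosome IPs, against 1450, 1431 and 1139 CPM in wild type, so the libraries overlapped before scaling. Its log2 fold change was -2.01 ± 0.37 (4.03-fold lower, adjusted p = 9.54e-04), and with library totals it was -0.47 with an adjusted p of 0.237. The ratio of Hsp26 to Hsp23 counts was 0.201, 0.204 and 0.154 in the ribosome IPs, 1.38 in the control IP and 1.87, 1.91 and 2.03 in wild type. The order of the 2 genes was thus opposite in the ribosome IPs and in every other library.

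Hsp67Bc was at 54.5, 4.63 and 6.65 CPM in the ribosome IPs, against 74.3, 94.4 and 56.9 CPM in wild type (-3.30 ± 0.88, adjusted p = 0.0075; -1.80 with an adjusted p of 0.0711 by library totals). Hsp67Bb, a gene of the cluster that overlaps Hsp22, was higher in the ribosome IPs at 12.8 to 18.3 CPM, against 0.897 to 1.70 CPM in wild type (log2 fold change 2.06 ± 0.33, adjusted p = 4.53e-04). A split of reads between these overlapping genes was not tested. Hsp67Ba (-0.48 ± 0.47, adjusted p = 0.367) and l(2)efl (2.11 ± 1.12, adjusted p = 0.111) did not pass, at no more than 5.05 CPM in any library.

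Hsp83, the Hsp90 of Drosophila, had 642, 552 and 720.2 CPM in the ribosome IPs, against 6383, 7087 and 5692 CPM in wild type. The log2 fold change was -4.89 ± 0.25 (29.6-fold lower, adjusted p = 3.25e-07). Its co-chaperone Hop fell by 1.86 ± 0.16 on the log2 scale (adjusted p = 6.99e-06) but by 0.29 with library totals (adjusted p = 0.167). The ubiquitin ligase CHIP, which marks chaperone clients for degradation, did not pass (-0.34 ± 0.20, adjusted p = 0.142). Of the 3 Hsp90-linked genes, then, the heat-inducible one differed most.

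Hsf, the transcription factor that drives the response, was at 9.40, 11.3 and 15.2 CPM in the ribosome IPs, against 22.97, 22.5 and 22.0 CPM in wild type (log2 fold change -2.48 ± 0.19, adjusted p = 4.00e-06). Hsromega, a heat-inducible long RNA that organises nuclear speckles and codes for no known protein, had 223, 118 and 112 CPM in the ribosome IPs, against 2055, 1673 and 1362 CPM in wild type. It fell by 5.02 ± 0.39 (32.5-fold lower, adjusted p = 3.85e-06). This non-coding RNA was thus lower by about as much as the coding Hsp83 and Hsp26.

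The J-domain genes split. DnaJ-1, the heat-inducible one, had 131, 122 and 109 CPM in the ribosome IPs, against 427, 401 and 453 CPM in wild type (-3.38 ± 0.22, 10.4-fold lower, adjusted p = 1.31e-06). DnaJ-H was higher, at 290 to 299.8 CPM in the ribosome IPs, against 20.5 to 26.4 CPM in wild type (2.13 ± 0.17, adjusted p = 4.62e-06). So was mrj, at 260 to 377 CPM against 25.7 to 28.8 CPM in wild type (1.91 ± 0.20, adjusted p = 2.70e-05). Droj2 did not pass (-0.01 ± 0.16, adjusted p = 0.946), although it was at 380 to 415 CPM in the ribosome IPs, against 132 to 145 CPM in wild type; with library totals it was among 5 further genes called higher, with Hsp60A, CHIP, Hsc20 and l(2)efl. The control IP held 458 CPM of DnaJ-H, 508 of mrj and 608 of Droj2, more than any ribosome IP.

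Of the mitochondrial genes and further cognates, 4 were close to absent from wild-type sorted cells. Hsp60C had 1102, 892 and 1067 CPM in the ribosome IPs, against 0.255, 0.425 and 0.153 CPM in wild type (log2 fold change 10.30 ± 0.38, adjusted p = 6.31e-08). Hsc70-2 had 329, 424 and 462 CPM in the ribosome IPs, against 0.128, 0.189 and 0.0767 CPM in wild type (10.02 ± 0.31, adjusted p = 5.31e-08). Both were thus abundant in the IPs and rested on 19 and 9 counts over the 3 wild-type libraries. Hsc70-1 was at 147 to 178 CPM in the ribosome IPs, against 0.142 to 0.298 CPM in wild type (7.90 ± 0.26, adjusted p = 5.57e-08). Hsp60D had 8499 counts over the ribosome IPs and 1 over wild type, a ratio of 4029 after scaling with a 95% counting interval of 723 to 159155 and an adjusted p of 5.94e-08. All 4 stood higher still in the control IP, at 1770, 838, 257 and 334 CPM for Hsp60C, Hsc70-2, Hsc70-1 and Hsp60D. The testis and sperm markers moved the same way, with all 11 higher in the ribosome IPs than in wild type, and their part in these 4 differences was not tested. Hsc70-5, the mitochondrial Hsp70, was at 184 to 210 CPM in the ribosome IPs, against 27.1 to 31.4 CPM in wild type (1.14 ± 0.15, adjusted p = 1.26e-04). The general mitochondrial chaperonin Hsp60A (0.03 ± 0.19, adjusted p = 0.886) and the iron-sulfur cluster J-protein Hsc20 (-0.25 ± 0.26, adjusted p = 0.387) did not pass.

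**Figure D4:**
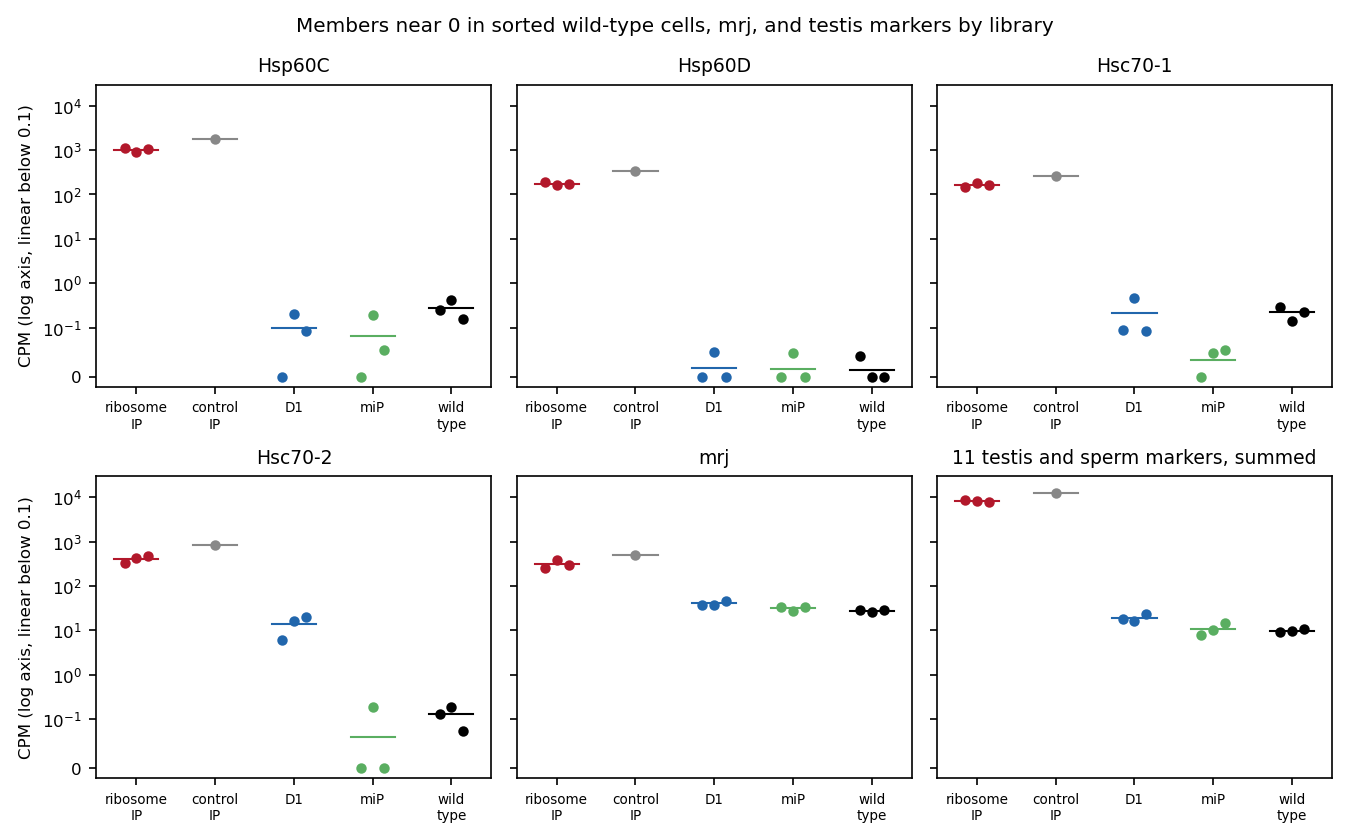
CPM per library (points; bars, group means; log axis, linear below 0.1) of Hsp60C, Hsp60D, Hsc70-1, Hsc70-2 and mrj and of 11 summed testis and sperm markers. Hsp60C, Hsp60D and Hsc70-1 stay at or under 0.464 CPM in every sorted library, while Hsc70-2 is at 5.96 to 20.2 CPM in D1 and at most 0.192 CPM in miP and wild type.

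Levels were also set against the secondary cell markers of the same library, since these were a far smaller part of the IPs. Per 1000 marker counts, summed Hsp70 came to 0.334, 0.228 and 0.618 in the ribosome IPs, 1.55 in the control IP and 3.81, 3.64 and 3.19 in wild type. Hsp68 came to 0.903, 0.0655 and 0.161 in the ribosome IPs, 1.93 in the control IP and 2.47, 2.80 and 1.94 in wild type. Both were thus lower in the ribosome IPs on this scale too. So was stv, at 0.206 to 0.547 in the ribosome IPs against 2.33 to 3.15 in wild type. In the control IP stv was at 2.52, within the wild-type range. Hsp83 was at 6.13, 2.65 and 3.81 in the ribosome IPs, 52.6 in the control IP and 8.78, 9.69 and 7.68 in wild type. Hsp26 was at 2.88, 0.576 and 0.658 in the ribosome IPs, 8.87 in the control IP and 3.73, 3.73 and 3.13 in wild type. These 2 were also lower in every ribosome IP than in any wild-type library, but not in the control IP. Hsp27 (2.80, 0.953 and 1.06 in the ribosome IPs, against 1.42, 1.59 and 1.19 in wild type) and DnaJ-1 (1.26, 0.585 and 0.576, against 0.586, 0.549 and 0.611) overlapped between the groups. Hsp23 and Hsc70-4 went the other way on this scale: Hsp23 was at 14.4, 2.82 and 4.26 in the ribosome IPs, against 1.99, 1.96 and 1.54 in wild type, and Hsc70-4 at 4.45, 2.01 and 3.37 in the ribosome IPs and 68.3 in the control IP, against 1.17, 1.09 and 1.03 in wild type. Hsromega was at 2.13, 0.565 and 0.594 in the ribosome IPs, 2.56 in the control IP and 2.82, 2.29 and 1.84 in wild type. Its groups thus overlapped, as those of Hsp27 and DnaJ-1 did. The direction for Hsp23, Hsc70-4, Hsp27 and DnaJ-1 therefore depends on what they are measured against. So does the separation of the groups for Hsromega.

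Gene structure was looked at because so many heat shock genes lack introns. Of the tested genes of the set with no intron, 9 of 10 were lower in the ribosome IPs, with a median log2 fold change of -5.56, while over all 1957 tested genes without an intron 15.5% were lower and 71.7% higher, with a median of 5.595. Among the 21 genes of the set with introns, 8 were lower and 8 higher, while 34.6% of all tested genes with introns were lower and 44.6% higher. The direction of these 9 genes was thus opposite to the median of all intronless genes. They include the near-identical Hsp70B copies, among which reads can be split, so the 9 are not all separate measurements.

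Related chaperone and stress lists, described by counts alone beside the 49.1% of all genes that were higher and the 31.5% that were lower, did not share 1 direction. All 8 subunits of the TRiC chaperonin, which folds actin and tubulin, were lower in the ribosome IPs (median log2 fold change -0.998), T-cp1 most (-1.71 ± 0.19, adjusted p = 4.52e-05). Before scaling, the TRiC subunits summed to 457 to 609.9 CPM in the ribosome IPs, above the 342 to 393 CPM in wild type, so their direction rests on the scaling. Prefoldin had 4 of 6 higher and 2 lower, with CG13993 at 2.01 ± 0.32. Among 8 Hsp90 co-chaperones 3 were higher and 3 lower, Sgt1 at 2.36 ± 0.19 and the myosin chaperone unc-45 at -2.02 ± 0.24. Other J-domain genes had 4 of 14 higher and 7 lower, CG12020 the most changed at 8.81 ± 0.45. Of 4 further small heat shock genes tested, 3 were higher and 1 lower. Other mitochondrial chaperones had 5 of 6 higher and 0 lower. The Hsp60 paralog Hsp60B was at 547 to 674 CPM in the ribosome IPs, 1242 CPM in the control IP and 0.0767 to 0.142 CPM in wild type, close to the pattern of Hsp60C.

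Of 6 immediate early genes, a group often linked to tissue dissociation, 4 were lower in the ribosome IPs and 0 higher, where 31.5% of all genes were lower and 49.1% higher. Before scaling, the 7 genes listed summed to 106 to 125 CPM in the ribosome IPs, above the 75.1 to 89.7 CPM in wild type. The direction of the list as a whole thus rests on the scaling. The JNK phosphatase puc was at 7.85 to 12.6 CPM in the ribosome IPs, against 23.2 to 29.0 CPM in wild type (-2.91 ± 0.24, adjusted p = 5.44e-06). Atf3 was lower by the test (-1.58 ± 0.30, adjusted p = 0.00117), but at 6.26, 7.76 and 6.53 CPM in the ribosome IPs, against 9.74, 6.51 and 4.87 CPM in wild type, its libraries overlapped before scaling. Of 8 oxidative and proteotoxic stress genes, 2 were higher and 4 lower, with the autophagy receptor ref(2)P at -2.25 ± 0.19 (adjusted p = 7.54e-06). The log2 fold changes of puc, Atf3 and ref(2)P were smaller in size than those of summed Hsp70, Hsp68 or stv.

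Between the ribosome IPs and the control IP, 1 of 30 tested genes of the set was higher, where 3.25% of 12723 genes were higher, and 0 were lower, where 0.267% were (3.52% in either direction). At an unadjusted p under 0.05, 5 were higher and 1 lower, where 20.2% of all genes passed in either direction. DESeq2, at the adjusted threshold, called 2 higher and 0 lower. The lone control is assumed to vary like the ribosome IPs. The gene that passed was Hsp23, with 1503, 587 and 805 CPM in the ribosome IPs, against 88.1 CPM in the control IP (log2 fold change 3.87 ± 0.69, 14.6-fold higher, adjusted p = 0.0354). Without ribosome IP replicate 3 its adjusted p was 0.0685 and 0 genes were higher; without replicate 1 or 2 the count was 4 or 3. Hsromega was next, at 112 to 223 CPM in the ribosome IPs against 35.1 CPM in the control IP (2.51 ± 0.56, adjusted p = 0.0609). It missed the threshold although every ribosome IP lay above the control. Summed Hsp70 was at 34.9, 47.5 and 117 CPM against 21.3 CPM in the control IP (1.99 ± 0.67, adjusted p = 0.162). The secondary cell markers had 4 of 8 higher in the same comparison. Hsp26 at 120.0 to 302 CPM against 122 CPM, Hsp27 at 198 to 293 against 189, Hsp83 at 552 to 720.2 against 723 and Hsp68 at 13.6 to 94.5 against 26.5 did not pass. After scaling, the ribosome IPs did not overlap the control for 28 of the 30 genes, against 68.7% of all genes. When a ribosome IP was left out, the number of all genes called higher also varied widely, as given in the closing section. With 1 control library, the 29 genes that did not pass are not shown to be alike in precipitates with and without a tagged ribosome.

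In D1 against wild type, both sorted the same way, the set moved far less, and the change was uneven within it. The non-coding RNA Hsromega and the inducible chaperones Hsp70Ba, stv and DnaJ-1 were lower in D1, while most Hsp70 copies, Hsp68 and the small heat shock genes did not pass. Hsc70-2 was higher. Of 28 tested genes 1 was higher, where 6.14% of 8222 genes were higher, and 5 were lower, where 3.62% were; in either direction that is 6 of 28, against 9.77% of all genes. The median log2 fold change was -0.32 over the 28 genes and 0.00 over all genes. After scaling, the 2 groups did not overlap for 12 of the 28 genes, against 31.6% of all genes.

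Hsc70-2 had 5.96, 16.4 and 20.2 CPM in D1, against 0.128, 0.189 and 0.0767 CPM in wild type (5.94 ± 0.75, 61.5-fold higher, adjusted p = 9.12e-04). All D1 libraries lay above all wild-type libraries, and no ribosome IP was below 329 CPM. The testis and sperm markers summed to 16.0 to 23.2 CPM in D1 and 8.97 to 10.6 CPM in wild type, with 5 of the 11 at 0 counts in every D1 library. Of the 11, bol made up 14.9 to 22.2 CPM of the sum in D1 and 7.32 to 8.62 CPM in wild type, and no other of the 11 exceeded 0.516 CPM in D1 or 0.805 CPM in wild type. Hsp60C and Hsp60D, which ran with Hsc70-2 in the IPs, stood at no more than 0.206 CPM in D1. Any part of testis RNA in the Hsc70-2 difference was not tested.

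The cochaperone stv had 392, 693 and 942 CPM in D1, against 2290.5, 2213 and 1729 CPM in wild type (-2.36 ± 0.24, 5.15-fold lower, adjusted p = 2.50e-04). DnaJ-1 had 167, 118 and 174 CPM in D1, against 427, 401 and 453 CPM in wild type (-2.08 ± 0.30, 4.23-fold lower, adjusted p = 0.00198). Neither pair of groups overlapped, which after scaling held for 31.6% of all genes. Hsromega had 762, 830 and 1328 CPM in D1, against 2055, 1673 and 1362 CPM in wild type (-1.49 ± 0.25, 2.80-fold lower, adjusted p = 0.00491; -0.80 with an adjusted p of 0.0940 by library totals). Droj2 was at 77.5, 143 and 148 CPM in D1, against 145, 134 and 132 CPM in wild type (-0.88 ± 0.19, adjusted p = 0.0146). The calls of stv (-1.62), DnaJ-1 (-1.48), Hsp70Ba (-2.26) and Hsc70-2 (6.72) held with library totals, at adjusted p-values of 0.00885, 0.00279, 0.00726 and 8.35e-04. That of Droj2 rested on the scaling: with library totals its adjusted p was 0.704, and it was lost without D1 replicate 2, D1 replicate 3 or any 1 wild-type library, at 0.0583 to 0.0792.

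The Hsp70 copies differed from each other. Hsp70Ba had 10.4, 22.5 and 26.7 CPM in D1, against 104, 109 and 72.6 CPM in wild type (-3.01 ± 0.32, 8.08-fold lower, adjusted p = 3.58e-04). Hsp70Bb had 2009, 2738 and 2818 CPM in D1, against 2553, 2446 and 2209.6 CPM in wild type (-0.61 ± 0.20, adjusted p = 0.0872). Per read of Hsp70Bb, Hsp70Ba came to 0.00519, 0.00823 and 0.00947 in D1, 0.0524, 0.0831 and 0.0520 in miP and 0.0407, 0.0445 and 0.0328 in wild type, so the D1 libraries had the lowest share of this copy among sorted cells. The difference between the copies was not tested, and reads shared by the copies make each value uncertain. Their sum was at 2084, 2867 and 2993 CPM in D1, against 2768, 2660.1 and 2366 CPM in wild type, overlapping between groups (-0.65 ± 0.20, adjusted p = 0.0712). With library totals the sum gave 0.0279, the opposite sign. Without D1 replicate 1 it passed, at -0.76 (adjusted p = 0.00653).

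Leaving out D1 replicate 1 gave 2 higher and 10 lower: Hsc70-4 joined the higher, and Hsp23, Hsp26, Hsp27, Hsp67Bc and Hsp70Bb the lower. Over all genes the counts rose as well, to 1093 higher and 1002 lower of 8607, against 505 and 298 of 8222 with every library. D1 replicate 1 was singled out above by its low Hsc70-4 level. The Hsc70-4 call without it therefore follows from that choice and is no separate result. The TMM factor of D1 replicate 1 was 0.905, against 1.52 and 1.58 for the other D1 libraries and 0.798 to 0.831 in wild type. The secondary cell markers summed to 448576 to 679733 CPM in D1, and 3 of 8 were lower than in wild type. Their part in the D1 results was not tested. Of the related lists, 4 of 12 other J-domain genes were higher and 1 lower, with CG6693 at 1.33 ± 0.24 and the endoplasmic reticulum protein P58IPK at 1.29 ± 0.25. The immediate early genes kay, the fly Fos (1.35 ± 0.23, adjusted p = 0.00431), and Jra, the fly Jun (0.79 ± 0.22, adjusted p = 0.0486), were higher in D1. While several heat shock genes were lower, these 2 were thus higher in the same libraries.

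**Figure D5:**
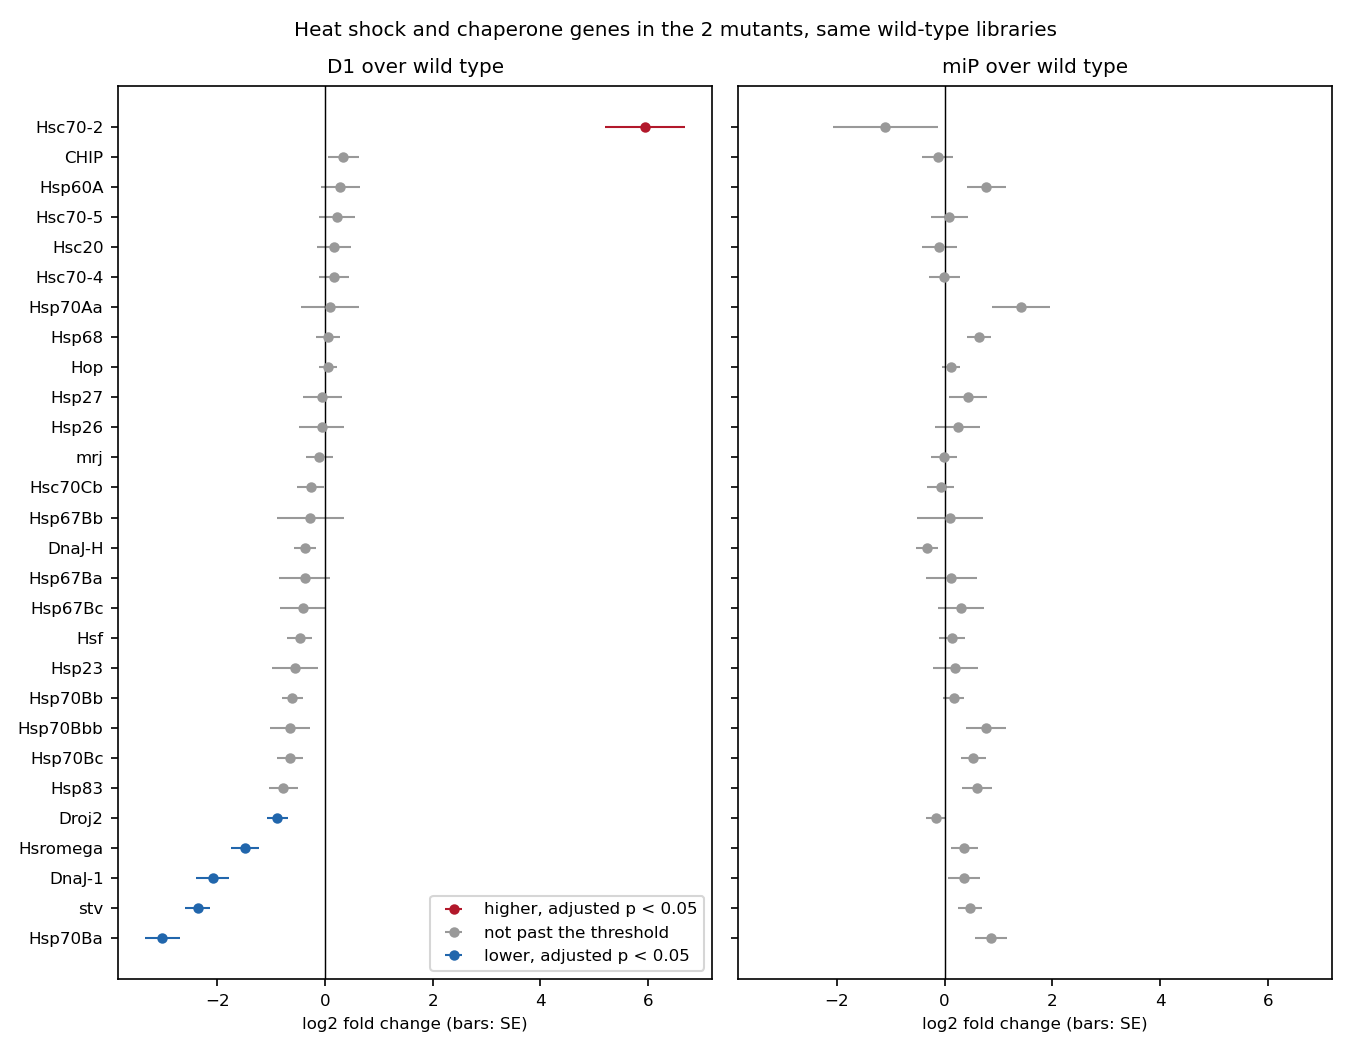
Log2 fold changes (x axes) with SE bars of the 28 tested genes for D1 over wild type (left) and miP over wild type (right), which share the 3 wild-type libraries; red, higher and blue, lower at an adjusted p under 0.05; grey, not past it. Hsc70-2 stands at 5.94 in D1, Hsp70Ba, stv, DnaJ-1, Hsromega and Droj2 are lower in D1, and in miP no gene passed.

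In miP against wild type, 0 of 28 tested genes were higher and 0 lower, where 0.0243% and 0.0608% of all genes were (0.0851% in either direction). At an unadjusted p under 0.05, 5 were higher (Hsp70Aa, Hsp70Ba, Hsp70Bc, Hsp68 and Hsp83) and 0 lower, where 3.55% of all genes passed in either direction. DESeq2, at the adjusted threshold, called 0. The 2 groups did not overlap for 12 of the 28 genes, against 14% of all genes. Hsp83 had 8265, 14429.5 and 11697 CPM in miP, against 6383, 7087 and 5692 CPM in wild type (0.60 ± 0.27, adjusted p = 0.940). Hsp68 had 2598, 4130.2 and 2897 CPM in miP, against 1799, 2049 and 1438 CPM in wild type (0.64 ± 0.23, adjusted p = 0.940). Every miP library thus lay above every wild-type library for these genes, within an error that the test did not separate from 0. Summed Hsp70 was at 2797, 4284 and 3613 CPM in miP, against 2768, 2660.1 and 2366 CPM in wild type (0.22, adjusted p = 0.940). When replicate 1 of both mutants was left out, Hsp60A, Hsp68, Hsp70Ba and Hsp83 were higher, and over all genes 361 of 8536 were then higher and 632 lower, against 2 and 5 of 8222 with every library.

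Set directly against miP, D1 had 1 of 28 genes higher, where 6.74% of all genes were, and 9 lower, where 3.81% were. This comparison shares the D1 libraries with that against wild type. The 2 mutants did not overlap for 12 of the 28 genes, against 26.8% of all genes. Hsc70-2 was higher by 7.04 ± 0.82 on the log2 scale (adjusted p = 5.72e-04), with 0, 0.192 and 0 CPM in miP. The lower genes were Hsp70Ba (-3.88 ± 0.34), stv (-2.83 ± 0.24), DnaJ-1 (-2.45 ± 0.31), Hsromega (-1.85 ± 0.26), Hsp70Bbb (-1.43 ± 0.38), Hsp83 (-1.37 ± 0.27), Hsp70Bc (-1.18 ± 0.24), Hsp70Bb (-0.78 ± 0.20) and Droj2 (-0.72 ± 0.19). For stv, 392, 693 and 942 CPM in D1 stood against 2787, 4151 and 3143 CPM in miP. Hsp83 was at 2825, 7081 and 9528 CPM in D1, against 8265, 14429.5 and 11697 CPM in miP, and its groups overlapped before scaling. Summed Hsp70 fell by 0.88 ± 0.20 (adjusted p = 0.0202), a call that was lost with library totals (-0.43, adjusted p = 0.267), with no filter (adjusted p = 0.0576), with all 13 libraries in 1 fit (0.203), with only the 2 groups (0.111) and without D1 replicate 2, D1 replicate 3 or miP replicate 2 (0.0687 to 0.0815). With library totals, 5 further calls were lost: Hsp70Bbb (-0.84, adjusted p = 0.315), Hsp83 (-0.82, 0.199), Hsp70Bc (-0.69, 0.166), Hsp70Bb (-0.34, 0.376) and Droj2 (-0.20, 0.666). Without D1 replicate 2 the count of lower genes was 5, and with only the 2 groups in the fit it was 4. Those 2 counts were not set against the calls over all genes in the same fits. Small heat shock genes did not pass between the mutants, with log2 fold changes of -0.76 (Hsp23) to -0.30 (Hsp26). Without D1 replicate 1 the lower genes numbered 13, with Hsp23, Hsp26, Hsp27 and Hsp67Bc added, and over all genes 907 were higher and 614 lower of 8607, against 554 and 313 of 8222 with every library.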

How the data were processed

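Counts of reads per gene for 16727 genes and 13 libraries were deposited by the authors, made with STAR and HTSeq on dm6 per the submitters' processing notes; their versions and settings are not stated there. Per the labels, 2 ng of RNA went into poly(dT)-primed SMARTer cDNA and Nextera XT libraries, read as single reads of 100 nt. The series text calls the replicates biological. Positions, introns and exonic lengths came from Ensembl release 115 on dm6: 12512 symbols matched directly, 4073 by a synonym and 142 not. Every row named a gene, and no column was left unassigned.

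The genes of the set, the related lists and the tests were chosen with earlier results of these data known. All members are accounted for. Full values are given for those past the threshold in at least 1 comparison and for the Hsp70 copies, and for related lists at most the 2 with the largest absolute log2 fold change past it. Counts were tested with edgeR 4.0.16 (quasi-likelihood, TMM factors, default expression filter) in R 4.3.3, with Benjamini-Hochberg adjustment over all genes at 0.05. The ribosome IPs were fitted with wild type, and with the control IP in a further fit; the 3 sorted genotypes (9 libraries) shared 1 fit. For the summed Hsp70, the 6 rows were replaced by their sum. SE is the log2 fold change over the root of F. Alternatives were DESeq2 1.42.0, other scaling factors, filters, sets of libraries and a replicate block. Tables were made in Python 3.11.15 (numpy 2.4.6, pandas 2.3.3, scipy 1.17.1) and figures with matplotlib 3.10.9. The fits were tested on simulated data in which few genes differed, as many up as down. That does not show how the fit behaves in ribosome IP against wild type, where most genes passed. A level of 1 CPM rests on 3.7 counts in the control IP and 11.2 to 26.1 in the others; reads carried no molecular identifiers, so floors and intervals cover counting error only.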

Additional observations from a re-analysis of the deposited data

How the results depend on the processing

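The ribosome IP against wild type comparison kept 8 or 9 genes higher and 17 or 18 lower under every alternative but library totals alone, which gave 13 higher and 14 lower, and the Hsp70 copies as 1 summed row, which leaves fewer rows and gave 8 and 14; its summed Hsp70 ranged from -7.37 to -6.48 with a library left out. D1 against wild type gave 2 higher and 3 lower with library totals, 1 to 2 higher and 4 to 10 lower with a library left out, and 4 higher and 12 lower without replicate 1 of both mutants. Its summed Hsp70 was 0.0279 with library totals, -0.60 with DESeq2 (adjusted p = 0.0163), -0.76 to -0.57 with a library left out and -0.76 without both (adjusted p = 8.65e-04). miP against wild type gave 4 higher without both and otherwise 0. D1 against miP gave 2 higher with library totals or without both, and 4 lower with library totals or only the 2 groups; 5 to 13 were lower with a library left out. Its summed Hsp70 was -0.43 with library totals, -0.86 with no filter or with all 13 libraries, -0.88 with only the 2 groups and -0.98 to -0.78 with a library left out. The ribosome IPs against the control gave 2 higher with DESeq2, no filter, the 5 CPM filter or all 13 libraries, and 0 to 4 with a ribosome IP left out; the summed Hsp70 was 1.95 with DESeq2 and 1.37 to 2.26 with a library left out. The causes were not tested. In D1 against wild type and D1 against miP, the counts without replicate 1 of both mutants were not set against calls over all genes. The same holds there for the counts with a library other than D1 replicate 1 left out.

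Over all genes, library totals gave 8160 higher and 1193 lower (ribosome IP against wild type), 1450 and 116 (D1 against wild type) and 1032 and 126 (D1 against miP). DESeq2 called 859 higher in D1 against wild type. Without D1 replicate 1 that comparison had 1093 higher and 1002 lower. Ribosome IP against control had between 1 and 1433 higher with a library left out.

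Replicate numbers recur in the groups, but the same-number correlations of deviations were not all above 0.1 (-0.173 to -0.0273 for D1 and wild type, -0.0549 to 0.0253 for ribosome IP and wild type, -0.134 to 0.141 for miP and wild type, 0.0917 to 0.293 for D1 and miP), so the numbers were not taken to pair the libraries. For D1 and miP the different-number correlations were -0.22 to 0.101. With 3 libraries a group, such values cannot decide whether same-number libraries shared a batch. With the number as a replicate block, the counts were 8 higher and 17 lower, 1 and 5, 0 and 0, and 1 and 9 in the ribosome IP, D1, miP and D1 against miP comparisons, and summed Hsp70 was -7.06, -0.65, 0.22 and -0.88. For the control IP, no paired analysis was possible because it has 1 library.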
